A study of Mus musculus with 10 samples.

Results

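The LPS receptor complex is described here through 3 genes, Tlr4, Cd14 and Ly96, taken by their symbol in the annotation of the array. Cd14 and Ly96 had 1 probe each, among 4418 named genes with usable spot intensities, and no probe carried the name Tlr4, which is not analysed here. Both probes were read on 10 arrays of cDNA spotted on plastic (Clontech Atlas), each probed with the radioactive cDNA of whole bladders pooled from 8 female mice. Wild type (WT) C57BL/6J mice and PAR1-/- mice, which lack the thrombin receptor PAR1 (gene F2r), received saline, LPS at 100 μg/ml or substance P (SP), a neuropeptide of sensory nerves, into the bladder. LPS and SP were followed for 4 and 24 h, and saline for 24 h only, so each ratio at 4 h was also taken to saline at 24 h. By the labels SP was given at 10 μM to WT and at 20 μM to PAR1-/- mice, whereas the methods give 1 dose for all mice. If the labels hold, genotype and SP dose cannot be told apart on the SP arrays. Each condition had 1 array, and for this reason single ratios were not tested, and how far pools of a condition vary is unknown.

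LPS is the lipopolysaccharide of the outer membrane of Gram-negative bacteria, which are the usual cause of bladder infection. LPS-binding protein passes it to CD14, a membrane-anchored or soluble protein of myeloid cells, and CD14 hands it to MD-2, the product of Ly96. MD-2 holds the lipid part of LPS in a pocket and sits on the outer domain of TLR4, and the loaded pair forms a dimer that signals through MyD88 and TRIF to NF-κB, MAP kinases and interferon regulatory factors. TLR4 and MD-2 are known both from macrophages and from the epithelial cells that line the bladder. In whole bladders, fewer cells of a type and less RNA per cell cannot be told apart.

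Ly96 was detected on most arrays and Cd14 on none. Spot intensities were recovered from the deposited scores as whole numbers, and a spot counted as detected above background if it exceeded the background mode of its array by over 3 SD. By this rule Ly96 was above background on 8 of 10 arrays, as were at least that many arrays for 22.2% of all probes, and Cd14 was at background on all 10, as were 35.5% of all probes.

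In the WT bladders, the Ly96 probe had an intensity of 11 after saline, 48 after 4 h of LPS, 15 after 24 h of LPS, 141 after 4 h of SP and 46 after 24 h of SP. In the PAR1-/- bladders, it had 30 after saline, 55 and 59 after 4 and 24 h of LPS, and 145 and 38 after 4 and 24 h of SP. The 2 values at background were those of WT saline, against a threshold of 13.0, and of 24 h of LPS in WT, against a threshold of 32.1. The value after WT saline was close below its threshold, whereas that of the PAR1-/- saline array was over its threshold of 12.7.

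The Cd14 probe had 9, 13, 15, 13 and 7 in WT bladders after saline, 4 and 24 h of LPS, and 4 and 24 h of SP. In PAR1-/- bladders it had 9, 10, 12, 11 and 10 in the same order. The genotypes overlapped, and the lowest threshold of any array was 12.6, on the WT array of 24 h of SP. No ratio of Cd14 could be formed between any 2 arrays, and a change of Cd14 was not detectable here. A spot at background gives only an upper limit, so neither direction nor size can be read for Cd14 mRNA.

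**Figure D1:**
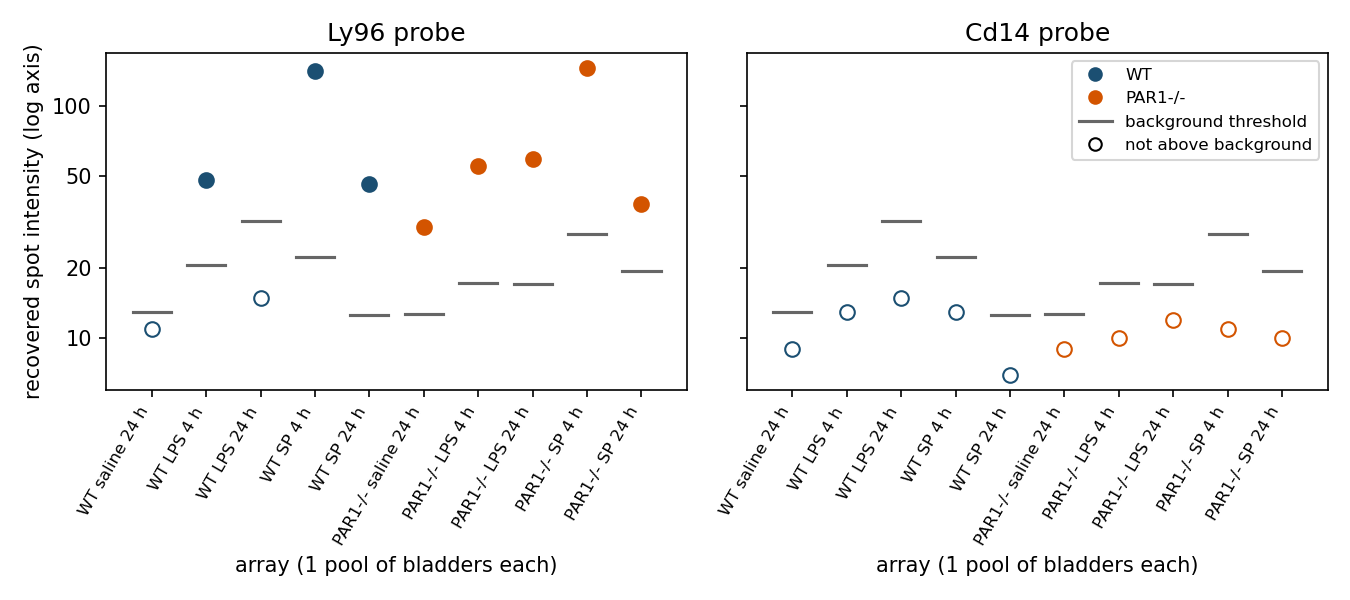
Recovered spot intensity (log axis) of the Ly96 probe (left) and the Cd14 probe (right) on each of the 10 arrays, in blue for WT and orange for PAR1-/-. Grey lines are the background threshold of each array and open circles lie at or under it. Ly96 was above the line on 8 arrays and Cd14 on none.

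The arrays differed in brightness and quality, which bears on both genes. Median intensity ran from 10 to 23 and summed intensity from 69562 to 277147. The SP arrays at 4 h were the brightest in each genotype. On the WT array of 24 h of LPS, 4176 probes, or 86.5%, held the same value of 15, among them Ly96 and Cd14. The rank correlation of this array with the others ran from 0.50 to 0.57, so neither gene has a measured level there. The F2r probe, which would check the genotype, was above background on 1 of 5 WT arrays, at 195 after 4 h of LPS, and on 3 of 5 PAR1-/- arrays, at 18 to 51. It is not known here whether this probe lies in the part of the gene that the PAR1-/- mice lack, so it checks nothing. Further facts limit the tie between a probe and its gene name. For 33 pairs of probes of the same gene, the median correlation over the 10 arrays was 0.14 after normalization, against 0.33 for 19993 random pairs of probes. Of 32 probes of ribosomal protein genes, which most cells express highly, 1 or 3.12% was above background on all arrays, against 10.5% of all probes. The values below are therefore those of the probes so named.

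To compare arrays, intensities were scaled by a robust regression on the mean array, and values at background were set to the normalized threshold, giving a normalized level in intensity units. In WT bladders the normalized level of Ly96 was under 22.1 after saline, 47.0 after 4 h of LPS, under 30.6 after 24 h of LPS, 71.8 after 4 h of SP and 99.2 after 24 h of SP. In PAR1-/- bladders it was 68.5 after saline, 46.4 and 51.1 after 4 and 24 h of LPS, and 57.8 and 32.4 after 4 and 24 h of SP. The PAR1-/- level lay above the WT limit after saline and after 24 h of LPS, the WT level was the higher after 24 h of SP, and both were nearly level after 4 h of LPS.

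The 8 arrays with a measured Ly96 level spanned 3.06-fold. From the highest, the order of normalized levels was 24 h of SP in WT, 4 h of SP in WT, PAR1-/- saline, 4 h of SP in PAR1-/-, 24 h of LPS in PAR1-/-, 4 h of LPS in WT, 4 h of LPS in PAR1-/- and 24 h of SP in PAR1-/-. As a scale for these steps, the log2 differences between both saline arrays had an SD of 0.46, or 1.38-fold, over 1036 probes above background on both, which also holds any effect of genotype. The 5 steps from 4 h of SP in WT down to 4 h of LPS in PAR1-/- were 1.01-fold to 1.18-fold, under that spread. The step at the top was 1.38-fold, barely at it, and that at the bottom 1.43-fold.

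**Figure D2:**
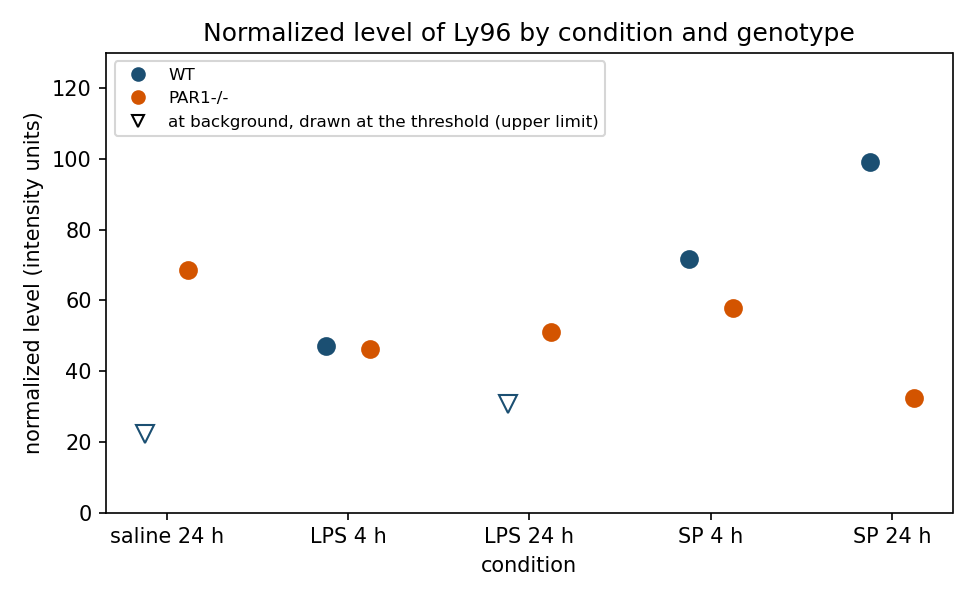
Normalized level of Ly96 (intensity units, axis from 0) in the 5 conditions, WT in blue and PAR1-/- in orange, 1 array per point. Open triangles are the upper limits of the 2 WT arrays at background. After saline the PAR1-/- point at 68.5 lies over the WT limit of 22.1, and after 24 h of SP the WT point at 99.2 lies over the PAR1-/- point at 32.4.

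The comparison of challenged with saline bladders asks which transcripts rise 3-fold after LPS or SP in WT and in PAR1-/- mice. In WT bladders Ly96 was at least 3.25-fold higher after 4 h of SP and at least 4.49-fold higher after 24 h of SP, both above 3-fold. It was at least 2.13-fold higher after 4 h of LPS, and no ratio could be formed after 24 h of LPS. These are lower limits because the WT saline array, shared by all 4, was at background. The share of all probes with a ratio that rose above 3-fold in the same comparison was 5.24% after 4 h of SP, 0.919% after 24 h of SP, 5.74% after 4 h of LPS and 1.60% after 24 h of LPS.

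In PAR1-/- bladders the normalized ratio of Ly96 to saline was 0.677 after 4 h of LPS, 0.746 after 24 h of LPS, 0.844 after 4 h of SP and 0.473 after 24 h of SP. Ly96 was above 3-fold in no PAR1-/- comparison, and Cd14 had no ratio there. Of the probes with a ratio, 1.74% and 1.31% were above 3-fold after 4 and 24 h of LPS. The shares were 1.23% and 1.42% after 4 and 24 h of SP. Of 16 comparisons of the 2 members with saline, only 7 had a ratio or a limit, all of Ly96, and 2 of these 7 were above 3-fold. The direction in PAR1-/- bladders depends on scaling: without normalization the folds of Ly96 were 1.83 and 1.97 after LPS and 4.83 and 1.27 after 4 and 24 h of SP.

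The median unnormalized ratio over all probes was 1.5 after 4 and after 24 h of LPS and 2.22 and 1.60 after SP on these 4 arrays. Divided by these medians, Ly96 stood at 1.22, 1.31, 2.17 and 0.792. On the PAR1-/- arrays, however, 57.9% to 69.7% of probes were at or under background. The medians therefore largely describe spots at background, and these quotients give no level of Ly96 relative to detected transcripts. In WT bladders the unnormalized Ly96 was at least 3.68-fold higher after 4 h of LPS, and at least 10.8-fold and 3.53-fold higher after 4 and 24 h of SP, as limits set by the threshold of the WT saline array. Without scaling, therefore, Ly96 was above 3-fold in these 3 WT comparisons and, in PAR1-/- bladders, after 4 h of SP.

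Both contrasts with saline rest on 1 saline array of each genotype, and these arrays differed for Ly96. Its normalized level was at least 3.10-fold higher in PAR1-/- than in WT saline bladders, and its unnormalized intensity at least 2.30-fold higher. Such a pair was not particular to Ly96: 427 probes, or 8.84%, were above background on the PAR1-/- saline array and not on the WT saline array, and 233, or 4.83%, the reverse. Of the 14 probes above 3-fold after 24 h of SP in WT, 12 were at background on the WT saline array, and 11 of these were above it on the PAR1-/- saline array. Of the 86 such probes after 4 h of SP in WT, the counts were 32 and 19. With the mean of both saline arrays as the reference, no ratio or lower limit of Ly96 was above 3-fold. The lower limits of the log2 ratio were 0.88 and 1.35 after 4 and 24 h of SP in WT. They were 1.23 and 1.70 with 1 background floor for all arrays, and 1.39 and 1.81 with a median shift in place of the regression. With either change the limit at 24 h was above 3-fold and that at 4 h was under it. A limit under 3-fold does not exclude a larger rise, because the WT saline spot was at background.

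The rank of the Ly96 probe within its own array needs no scaling. On the WT saline array Ly96 was among the 73.7% of probes at or under the threshold, and on the WT array of 24 h of LPS among the 88.1%, so it has no measured rank on either. On the other WT arrays it lay at percentile 85.4 of all probes after 4 h of LPS, 92.6 after 4 h of SP and 96.0 after 24 h of SP, above that saline limit. In PAR1-/- bladders it lay at 94.0 after saline, 88.4 and 89.8 after 4 and 24 h of LPS, and 91.2 and 81.9 after 4 and 24 h of SP. All 4 challenged PAR1-/- arrays thus had a lower rank than their saline array.

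**Figure D3:**
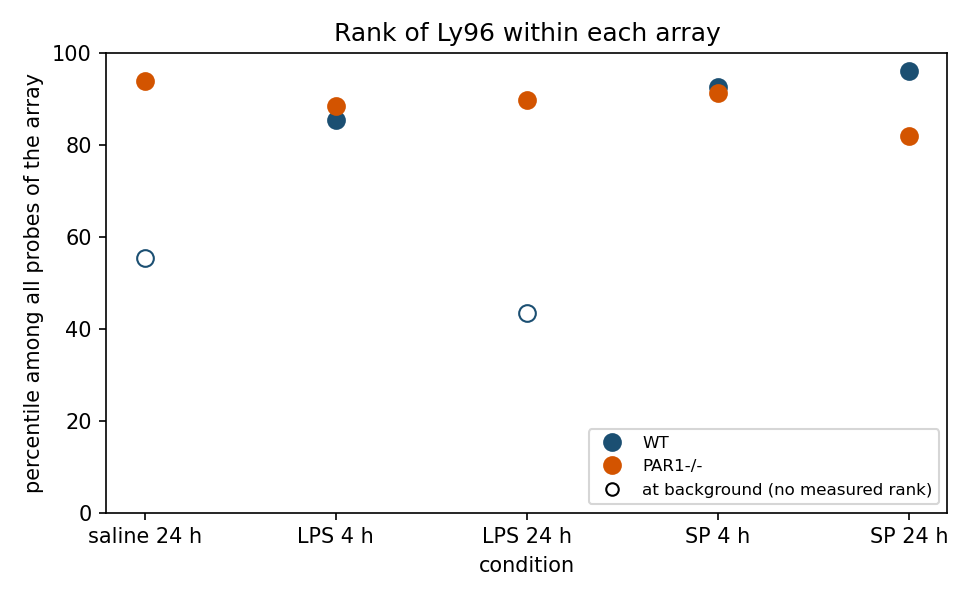
Percentile of the Ly96 probe among all probes of the same array (0 to 100) in the 5 conditions, WT in blue and PAR1-/- in orange, 1 array per point. Open circles are the 2 WT arrays on which Ly96 was at background, and the 5 PAR1-/- points lie between 81.9 and 94.0.

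Across the 5 matched conditions, Ly96 was higher in PAR1-/- bladders in 2 and lower in 3, and the difference was within the spread of the pairs. The normalized ratio of PAR1-/- to WT was at least 3.10 after saline, 0.987 after 4 h of LPS, at least 1.67 after 24 h of LPS, 0.806 after 4 h of SP and 0.326 after 24 h of SP. The mean log2 difference was 0.09 (two-sided exact sign-flip permutation test, p = 0.938, n = 5 pairs, smallest possible p 0.063). The 2 WT values at background entered at their thresholds, so this mean is a lower limit. The test, and the fit below, take these thresholds as measured levels. Among the higher pairs, 1 holds the WT array of 24 h of LPS, on which Ly96 was not measured. Without that array the normalized difference turned to -0.08. Without normalization Ly96 was higher in PAR1-/- bladders in 4 of the 5 pairs, with a mean log2 difference of 0.41 (exact permutation p = 0.312). In the fit with limma over 1954 probes, the normalized difference was 0.09 with an SE of 0.36 and an interval from -0.71 to 0.88 (adjusted p = 0.931), and 0% of probes passed an adjusted p of 0.05.

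Ly96 was lower after LPS than after SP in 3 of 4 matched pairs. The normalized ratio of LPS to SP was 0.655 at 4 h and at most 0.308 at 24 h in WT, and 0.802 at 4 h and 1.58 at 24 h in PAR1-/- bladders. The mean log2 difference of -0.49 did not pass the exact sign-flip permutation test (p = 0.50, n = 4 pairs, smallest possible p 0.125) or limma (SE 0.33, interval from -1.23 to 0.25, adjusted p = 0.642, 0% of probes called). Among the lower pairs, 1 holds the WT array of 24 h of LPS, on which Ly96 was not measured, and without that array the difference was -0.22.

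Between 24 and 4 h, the normalized ratio of Ly96 was at most 0.650 for LPS and 1.38 for SP in WT, and 1.1 for LPS and 0.560 for SP in PAR1-/- bladders. The pairs went both ways, 2 higher and 2 lower, with a mean log2 difference of -0.21 (exact sign-flip permutation test, p = 0.50, n = 4 pairs). Without normalization 3 of 4 pairs were lower at 24 h, with a mean of -1.01 (exact permutation p = 0.250), and without the WT array of 24 h of LPS the normalized difference turned to 0.05. The fit with limma gave an SE of 0.33 and an adjusted p of 0.750, and called 0.0512% of probes for time.

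Challenged against saline arrays of both genotypes, Ly96 had a log2 difference of 0.39 with an SE of 0.43 (limma, adjusted p = 0.865), where 0.102% of probes were called. The difference of this contrast between genotypes, tested as an interaction in limma, was -1.93 with an SE of 0.75 and an interval from -3.52 to -0.35. Its unadjusted p of 0.0196 ranked 22 of 1954 probes and gave an adjusted p of 0.983, and 0% of probes were called. The different response of Ly96 to challenge in WT and PAR1-/- bladders therefore did not pass the test over all probes, and it rests on the single saline array of each genotype. In both fits Ly96 entered at the threshold on the WT arrays of saline and of 24 h of LPS. Neither difference is therefore one of measured levels alone.

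The related receptors on the array are given for context, chosen by role. All 7 with values were above background on at least 1 array, and 0 of 7 rose above 3-fold in a comparison, against 4.22% of all probes. Lbp, the serum protein that hands LPS to CD14, was above background on all 10 arrays, with intensities of 20 to 67 and a median of 38. Ly86 encodes MD-1, the relative of MD-2, and was above background only on the WT array of 4 h of LPS, with 26 against 7 on the WT saline array, or at least 1.18-fold higher after normalization. Cd180, its TLR-like partner RP105, was above background only on the PAR1-/- array of 24 h of SP, with 28, or at least 1.04-fold higher. This pair, built like TLR4 and MD-2, thus came above background on 1 array each, and not on the same one. Tlr2, a receptor for bacterial lipoproteins, was above background on 7 arrays at up to 33, Tlr6, its partner, on 7 at up to 93, and Tlr5, the flagellin receptor, on 3 at up to 36. Each of these 3 was brightest on the PAR1-/- array of 4 h of SP, which is also the brightest array.

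Downstream of the receptor, Myd88, the adaptor that TLR4 recruits, was above background on all 10 arrays at 19 to 357. Irak1, the kinase that MyD88 brings in, was above background on 9 arrays and Traf6, the ubiquitin ligase that follows, on 7. None of the 10 adaptors and kinases with values rose above 3-fold. Of these, 4 (Ikbkg, Map2k4, Mapk9 and Tbk1) were never above background, so no ratio could be formed for them. Of all probes, 4.22% rose in any comparison and 35.5% were never above background. The kinase Map3k7 (TAK1) fell to at most 0.306 of saline after 4 h of SP in PAR1-/-, where the saline array, with 21, was the only 1 of the 10 above background, and the unnormalized ratio was 0.714.

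Over the whole TLR4 pathway, 34 of 60 listed genes had values, 9 of them (26.5%) were never above background, and 1 rose and 1 fell beyond 3-fold in any of the 8 comparisons, or 2.94% each way. Of all probes, 35.5% were never above background, 4.22% rose and 1.78% fell by the same rule. The gene that rose was Fos, an immediate early transcription factor, with 8.98-fold after LPS and 8.97-fold after 4 h of SP in WT and 3.11-fold after 4 h of LPS in PAR1-/- bladders. Of the transcripts that LPS is known to induce, 24 of 28 had values, 8 (33.3%) were never above background, and 1 rose and 1 fell, or 4.17% each way. Irf1, an interferon regulatory factor, rose 3.62-fold after LPS and 3.43-fold after 4 h of SP in WT bladders, and its ratios in PAR1-/- bladders were 0.474 to 0.730, or 1.31 to 2.38 without normalization. Like Ly96, Irf1 had a higher normalized level in PAR1-/- than in WT saline bladders, 57.5 against 34.7. The chemokine gene Ccl7 fell to 0.303 of saline after LPS and 0.181 after 4 h of SP in WT bladders, and without normalization these ratios were 0.632 and 0.605.

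Neither list was called by limma for any factor, with 16 genes of the TLR4 pathway and 9 of the LPS-induced transcripts tested. Their median log2 difference for challenge was 0.01 and -0.23, against -0.06 over all 1954 probes, and for genotype 0.02 and -0.30, against -0.09.

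Macrophages and neutrophils are known to carry the LPS receptor, so their markers were read beside it, summing the normalized levels of those above background. Of 12 macrophage markers 4 had values, of which 1 or 2 were above background on an array, with sums of 57.95 to 100.2 in WT and 47.1 to 73.95 in PAR1-/- bladders. The sum was 90.7 on the WT saline array, and 100.2 and 64.5 on the WT arrays of 4 and 24 h of SP. Cd68, a lysosomal protein of macrophages, was at background on all arrays. Csf1r, the receptor for the macrophage growth factor, had intensities of 31 after WT saline and 46 and 18 after 4 and 24 h of SP in WT. Its normalized ratios were 0.427 and 0.516 where Ly96 was at least 3.25 and 4.49. Over the 2 macrophage markers with a ratio, Csf1r among them, the median ratio was 1.06 and 0.768. The other marker thus had a higher ratio than Csf1r at both times. Of 12 neutrophil marker symbols, also with aliases, 8 had values, of which 0 to 5 were above background on an array. In WT bladders their sum was 34.69 after saline, 51.26 and 0 after 4 and 24 h of LPS, and 67.76 and 71.02 after 4 and 24 h of SP. In PAR1-/- bladders it was 60.95, 40.71, 46.12, 81.07 and 20.00 in the same order. Each sum rests on the few markers above background on that array. S100a8, an abundant neutrophil protein, was at background on all arrays. The marker S100a9 was above background on the saline arrays, at 19 in WT and 15 in PAR1-/-. It was also above background at 30 and 20 after 4 and 24 h of SP in WT. In PAR1-/- bladders it had 23 after 4 h of LPS and 42 after 4 h of SP, and it was at background on the remaining arrays.

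Markers of the bladder itself were also uneven. Of 4 urothelium markers with values, 2 were above background on the WT and 1 on the PAR1-/- saline array. Upk2, a uroplakin of the urothelium, was at background on both saline arrays. It was above background after 4 h of SP in WT, and after 4 and 24 h of LPS and 4 h of SP in PAR1-/- bladders. Of 6 smooth muscle markers with values, 3 were above background on the WT and 2 on the PAR1-/- saline array, with summed levels of 263.1 and 531.4. After 4 and 24 h of LPS the sums were 490.4 and 287.1 in WT and 445.2 and 435.3 in PAR1-/- bladders. After 4 and 24 h of SP they were 410.9 and 509.1 in WT and 434.3 and 564.2 in PAR1-/- bladders. The smooth muscle actin gene Acta2 had an intensity of 23 on the WT and 112 on the PAR1-/- saline array. The smooth muscle myosin gene Myh11 was at background on both saline arrays. Myh11 was above background on every challenged PAR1-/- array and on the WT arrays of 4 h of LPS and 4 h of SP. The part of tissue composition in the Ly96 values was not tested.

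The genes whose normalized levels over the 10 arrays were most like that of Ly96, among the 1954 probes, were Ehd1 (r = 0.87), Ajuba (0.84), Clic4 (0.83), Stxbp4 (0.82) and Keap1 (0.79). Over all probes the median correlation with Ly96 was -0.12. These correlations are a description, because all 10 points share the same saline arrays, brightness and scaling.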

How the data were processed

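The authors quantified the spots of the arrays with AtlasImage. The deposited values are scores: on the log2 scale every probe averages 0 across the 10 arrays and has the same SD as every other probe, as read from the values. The planned design had taken them for intensities. For each probe, sets of whole-number intensities up to 3000 matching its scores were sought and accepted where fewer than 0.01 chance matches were expected, which recovered 4829 of 5030 probes (96%). The search can be off by a factor common to a probe, which leaves ratios before normalization unchanged. By the annotation 4633 probes have 1 gene, 5 several and 392 none.

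Background was the mode of a kernel density, with the threshold 3 SD above it, the SD taken from values under the mode. Arrays were scaled by rlm (MASS 7.3.60.0.1, R 4.3.3) on the mean array over the 507 probes above background on all arrays, and a ratio above 3 counted as raised. limma 3.58.1 was fitted to the 1954 probes above background on at least 4 arrays, with genotype paired by condition, at a Benjamini-Hochberg adjusted p of 0.05, and tested on simulated data. The p-values measure the spread between pools of different conditions. Values at background entered every fit and exact test at their threshold, so no p-value or interval treats them as limits. Genes are named as members, as listed genes beyond 3-fold, as the relatives Ly86 and Cd180, as the 5 most alike and as defining markers, and Lbp, Tlr2, Tlr5, Tlr6, Myd88, Irak1, Traf6 and F2r were named after their values were seen. Members and lists were chosen with earlier results of these data known. The interaction and the scaling without 1 array were added after the data were seen.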

Additional observations from a re-analysis of the deposited data

How the results depend on the processing

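The count of 2 member comparisons above 3-fold was 4 without normalization, 1 with a median shift, 1 with a common floor, 3 with the background mode subtracted, 3 with a ratio above 2 and 0 with the mean of both saline arrays as reference. It stayed at 2 when the WT array of 24 h of LPS was left out of the scaling. Log2 ratios of Ly96 after 4 h of LPS, 4 h of SP and 24 h of SP in WT are lower limits here. They were 0.62, 1.23 and 1.70 with a common floor, and 2.25, 3.0 and 3.61 with the background mode subtracted. With the mean saline reference they were 0.27, 0.88 and 1.35. Without normalization the log2 ratios of Ly96 at 4 h were at least 1.88 for LPS and 3.43 for SP in WT bladders. In PAR1-/- bladders they were 0.87 and 0.98 for LPS at both times, and 2.27 and 0.34 for SP. With the mean saline reference, PAR1-/- log2 ratios were at least 0.25 and 0.39 after LPS and at least 0.57 after 4 h of SP. Against the PAR1-/- saline array alone these log2 ratios were -0.56, -0.42 and -0.24, so their direction depended on the reference.

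In limma, probes called for genotype, time and challenge were 33, 50 and 450 without normalization, where Ly96 passed for challenge with 1.61. With quantile normalization 17, 3, 10 and 39 were called for genotype, stimulus, time and challenge, and Ly96 turned to 0.05 for time. With all probes 137, 1, 4 and 61 were called, and 5 for the interaction. With probes above background on all arrays 0 were called for time and 1 for challenge, and with an intensity trend 1 for challenge. The counts of 0 for genotype, stimulus and interaction stand beside 235, 116 and 65 probes at an unadjusted p under 0.05. The cause of these changes was not tested.

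Leaving out 1 array at a time (leave-one-out), the Ly96 difference ran from -0.58 without WT saline to 1.36 without PAR1-/- saline for challenge, from -0.30 to 0.51 for genotype, from -0.81 to -0.16 for stimulus, from -0.55 to 0.11 for time and from -2.23 to -1.66 for the interaction, whose saline arrays cannot be left out. Ly96 was called in none of these fits. Called probes ran from 1 to 15 for challenge, 0 to 3 for genotype, 0 to 1 for time, and stayed at 0 for the others. No paired analysis of replicates was possible because the labels number none and each condition has a single pool; the pairs tested are arrays matched on the other conditions. A spot at background gives only a bound, which limits every Cd14 value and the WT saline level of Ly96.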
